A study of Mus musculus with 15 samples.

Results

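Nonsense-mediated decay (NMD) is the surveillance pathway that removes mRNAs whose translation stops at a premature codon. The transcripts of 9 of its core factors were followed here in CD8+ T cells, out of 55536 annotated genes in the count table. The members are Upf1, Upf2, Upf3a, Upf3b, Smg1, Smg5, Smg6, Smg8 and Smg9, chosen by name and role and not by their values. All 9 passed the filter on low counts, and no member passed it only through 1 group, because each was at 12.2 CPM (counts relative to the scaled library total) or more in every library.

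All libraries came from cells of OT-I mice, which are Rag1-/- or Rag2-/- on a C57BL/6J background (CD45.1 or CD45.1/2 for transferred cells) and carry a T cell receptor transgene for the ovalbumin peptide SIINFEKL. The mice were of both sexes and aged 1.5 to 8 months. Naive libraries (n = 5) came from OT-I mice whose cells were not transferred. Ag libraries (n = 5) came from OT-I cells moved into wild-type C57BL/6J recipients that then received SIINFEKL and a control rat IgG. Ag+Costim libraries (n = 5) came from recipients given SIINFEKL with agonist antibodies to the costimulatory receptors CD134 (OX40) and CD137 (4-1BB). Per the labels, transferred cells were taken from spleen and lymph nodes at day 4 and sorted as CD8+ CD45.1+ cells with the transgenic receptor. Naive cells therefore differed from the other groups by transfer and time in a host as well as by antigen, and these cannot be told apart. The labels do not say whether each library came from a separate mouse. The authors' paper describes 5 biological replicates per group, and for its splicing analysis 5 mice per group. The p-values measure the spread between these libraries. The question behind the design is which transcripts costimulation changes beyond antigen alone.

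The libraries differed in ways that the groups do not explain. Total counts ran from 4865952 in Ag 3 to 25280667 in Naive 3, and Ag 3 also had the lowest share of sequenced reads that were counted, 16.9% against 37.4% to 53.6% elsewhere. The recorded input amount was 1.4 for Ag 2 and 1.8 for Ag 5 against 7 to 10 in the other libraries. Summed CPM of 16 cell cycle genes was 8277 to 10347 in Ag+Costim but 575 to 6528 in Naive, where Naive 5 was highest, and 1304 to 9092 in Ag, where Ag 1 and Ag 4 were lowest. The 6 CD8 T cell markers were present in every library, and Cd4 did not exceed 4.79 CPM. The 6 erythroid markers summed to 1311 CPM in Ag 3 and to at most 152 elsewhere. The B cell markers summed to 582 to 975 CPM in Naive, 602 to 1379 in Ag, then 502 to 745 in Ag+Costim. The 7 myeloid markers summed to 11.5 to 188 CPM in Naive, 60.4 to 137 in Ag, then 82.1 to 153 in Ag+Costim, and Naive 5 was highest. Naive and Ag libraries were on separate sequencing lanes, so lane can be set apart from that pair only through the Ag+Costim libraries, of which 3 were on lane 2 and 2 on lane 3. The part of other cell types in the results was not tested.

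NMD works through a fixed chain of factors. UPF1, an RNA helicase, is loaded at a terminating ribosome and is bridged by UPF2 to UPF3A or UPF3B, which contact the exon junction complex left behind by splicing. SMG1, a large kinase held in a complex with SMG8 and SMG9, phosphorylates UPF1, and phosphorylated UPF1 then attracts SMG6, an endonuclease that cuts the mRNA, or SMG5, which leads to deadenylation and decapping. Several of the factors' own mRNAs are known NMD targets, and CD8+ T cells use alternative splicing widely when they are activated.

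Stretches of sequence from some members are shown first, and whether they bear on the results was not tested. Upf1 (ENSMUSG00000058301.8, chromosome 8 of GRCm38, 70331525 to 70353278, minus strand) is the member with a known choice between coding forms. Its long annotated transcript has 33 bases in exon 7 that the short one lacks, at chr8:70339982-70340014, inside the coding sequence and in frame, which adds 11 codons to the regulatory loop of the helicase. The segment is in capitals, with 20 transcript bases on each side.

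Upf1, long form: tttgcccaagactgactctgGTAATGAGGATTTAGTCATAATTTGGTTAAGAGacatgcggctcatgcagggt
Upf1, short form: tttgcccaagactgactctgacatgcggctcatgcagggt

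Smg1, Upf2 and Smg6 followed the most similar course over the libraries, and Upf1 a different one, so the sequences before the RefSeq starts of these genes are given side by side (GRCm38.p6). Windows of 150 bases before the start were searched on both strands for GGGCGG (SP1), GCGC followed by any base and TGCGC (NRF1), CCAAT (NF-Y), CCGGAAG (ETS), AAGATGGC (YY1), CACGTG (E-box) and TGACGTCA (CRE), and matches are in capitals, running together where they abut. The Smg1 and Smg6 windows are printed only up to the GENCODE gene start, which leaves out 33 and 31 bases.

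Smg1, chr7:118243671-118243787, minus strand: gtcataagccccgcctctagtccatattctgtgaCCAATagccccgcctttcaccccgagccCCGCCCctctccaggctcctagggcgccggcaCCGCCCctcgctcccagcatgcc
Upf2, chr2:5951319-5951468, plus strand: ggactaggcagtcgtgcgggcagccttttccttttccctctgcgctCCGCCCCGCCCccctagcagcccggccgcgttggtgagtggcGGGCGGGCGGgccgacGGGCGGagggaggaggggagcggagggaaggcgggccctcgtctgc
Smg6, chr11:74925704-74925822, plus strand: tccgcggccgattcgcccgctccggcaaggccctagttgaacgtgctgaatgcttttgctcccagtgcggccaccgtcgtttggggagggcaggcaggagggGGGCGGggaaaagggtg
Upf1, chr8:70353280-70353429, minus strand: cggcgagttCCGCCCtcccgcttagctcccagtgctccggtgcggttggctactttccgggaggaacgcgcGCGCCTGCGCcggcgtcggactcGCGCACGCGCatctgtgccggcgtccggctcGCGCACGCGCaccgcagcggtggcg

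Over the full windows GGGCGG was found 3 times for Smg1, 5 times for Upf2 and 2 times for Smg6, and also once each for Upf1 and Upf3a, so 5 of 9 members held it against 29.0% of 27025 gene windows. Upf1 held 3 matches to the NRF1 letters and Smg9 held 1, against 3.22% of all windows. The ETS letters were found once, for Smg8, against 5.68% of all windows. CCAAT was found for Smg1, Upf3a and Upf3b, against 25.3% of all windows. The E-box, CRE and YY1 letters were found in no member window, against 4.30%, 1.44% and 0.881% of all windows. These are matches of letters and no measurement of binding.

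CPM values below are scaled by TMM, the trimmed mean of M-values, and fold changes are from edgeR's quasi-likelihood test fitted to all 15 libraries over 17366 genes, with Benjamini-Hochberg adjusted p-values (FDR) and calls at an FDR under 0.05. In these bulk samples, fewer cells that express a gene and less RNA of it per cell cannot be told apart. In Ag+Costim vs Naive, 4 of 9 members fell (Smg1, Upf2, Smg6 and Smg9) and none rose, where 23.6% of all genes tested fell and 21% rose. The share of members called, 4 of 9, stood beside 44.7% of all genes called in either direction, so it was at the background. In Ag vs Naive 1 member, Smg5, fell, where 6.71% of all genes were called, 3.05% higher and 3.66% lower. None was called in Ag+Costim vs Ag, where 0.0346% of all genes were, 0.0288% higher and 0.00576% lower. An unadjusted p under 0.05 was reached by 5 of 9 members in Ag+Costim vs Naive and by 3 of 9 in Ag vs Naive, beside 55.7% and 28.7% of all genes. The median log2 fold change of the 9 members was -0.32 in Ag+Costim vs Naive, -0.48 in Ag vs Naive and -0.05 in Ag+Costim vs Ag, beside -0.08, 0.08 and -0.10 over all genes tested.

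**Figure D1:**
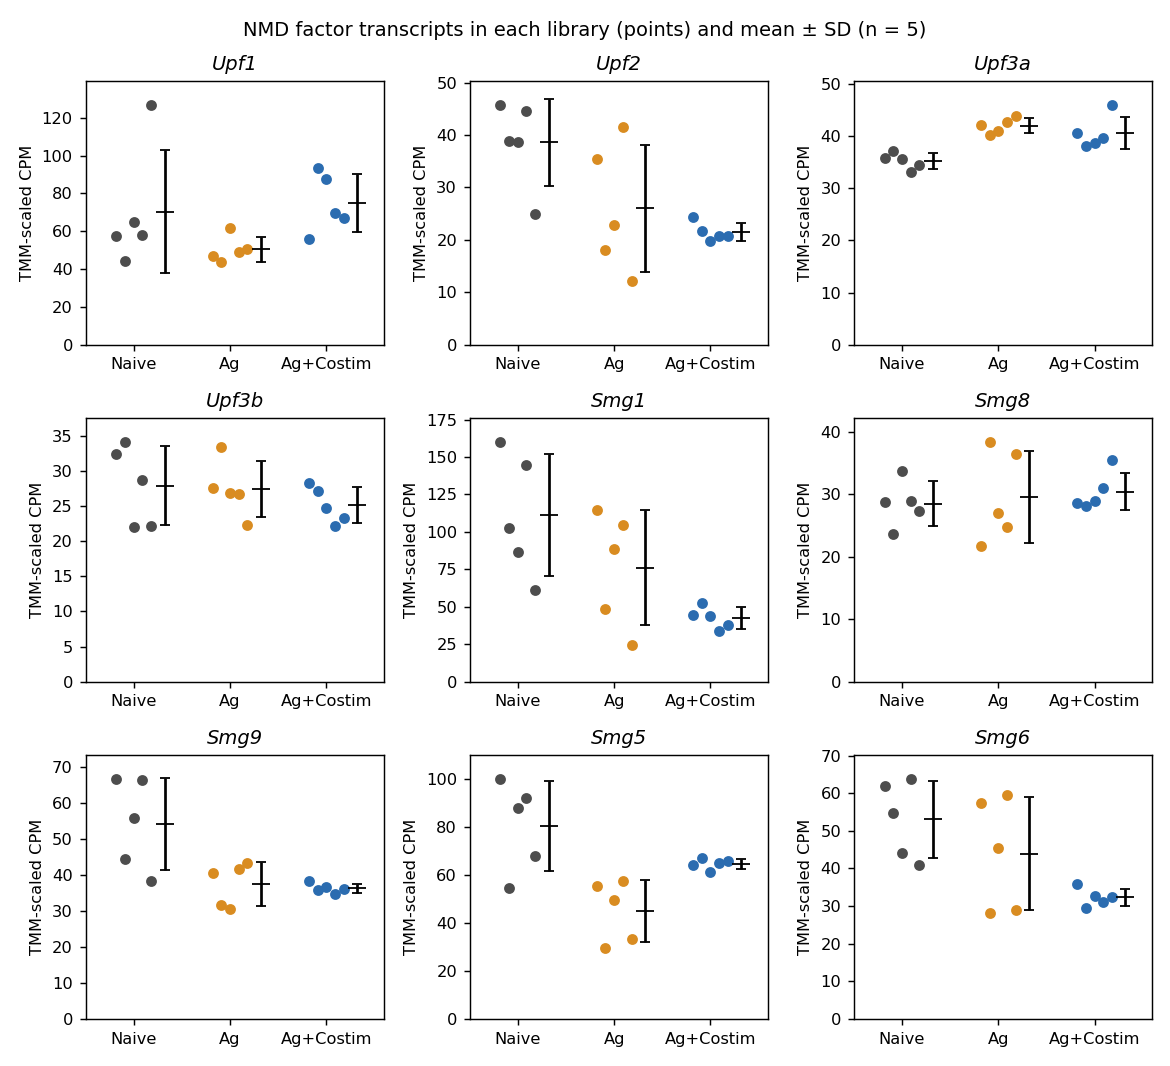
TMM-scaled CPM (vertical axis) of the 9 NMD factors in each Naive, Ag and Ag+Costim library (points), with the mean ± SD of each group beside them (n = 5). Smg1, Upf2 and Smg6 lie lower in all Ag+Costim libraries than in any Naive library, and the Ag libraries spread over both ranges.

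The core helicase Upf1 showed no called difference. Its level was 57.3, 44.3, 64.9, 58.1 and 127 CPM in Naive 1 to 5. It was 47.1, 43.7, 61.6, 49.2 and 50.5 CPM in Ag 1 to 5 and 56.0, 93.6, 87.6, 69.6 and 67.3 CPM in Ag+Costim 1 to 5. Naive 5 stood far above the other Naive libraries. It was also the Naive library with the highest cell cycle level (6528 CPM) and the highest summed myeloid markers (188 CPM). The log2 fold change was 0.09 ± 0.24 (SE) in Ag+Costim vs Naive (edgeR FDR = 0.768). Upf1 shares 68 exon bases with Cers1 on the opposite strand, a gene with 28 counts in all libraries. Without Naive 5 the Ag+Costim vs Naive difference was 0.43, with an edgeR FDR of 0.0424, where 51% of all genes were called. The difference in Ag+Costim vs Ag, 0.57 ± 0.24, had an unadjusted p of 0.0322 and an FDR of 0.150, and the groups overlapped. Without Naive 5 and Ag 3 together, a choice made after seeing the data, that difference was 0.67 with an FDR of 0.0364, where 5.73% of all genes were called.

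Upf2, which links UPF1 to UPF3, fell 1.80-fold in Ag+Costim vs Naive (log2 fold change -0.84 ± 0.27, edgeR FDR = 0.0257). Its level was 45.7, 38.9, 38.7, 44.7 and 24.9 CPM in Naive 1 to 5 and 24.3, 21.7, 19.8, 20.8 and 20.8 CPM in Ag+Costim 1 to 5. The groups did not overlap, as for 45% of all genes (22.3% with Ag+Costim lower, 22.7% with it higher), although Naive 5 lay within 1 CPM of Ag+Costim 1. In Ag it was 35.4, 17.98, 22.9, 41.5 and 12.2 CPM, so that Ag 1 and Ag 4 lay in the Naive range and Ag 5 below every other library. The Ag vs Naive difference was -0.57 ± 0.27 (edgeR FDR = 0.181). The call in Ag+Costim vs Naive was lost on leaving out any of Naive 1, Naive 3, Naive 4 and Ag+Costim 3, 4 or 5 (edgeR FDR from 0.0505 to 0.0864), with log2 fold changes from -0.95 to -0.74 over all single libraries left out. It was also lost with lane as a term (edgeR FDR = 0.107) and without the filter on low counts (edgeR FDR = 0.169).

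Upf3a was the steadiest member, with 33.1 to 37.2 CPM in Naive, 40.3 to 43.9 in Ag, then 38.2 to 46.0 in Ag+Costim. The Naive range lay below both other ranges without overlap, as for 1.76% of all genes higher in Ag vs Naive (3.85% in either direction) and 22.7% higher in Ag+Costim vs Naive. The differences were small and not called: the log2 fold change was 0.25 ± 0.08 in Ag vs Naive (edgeR FDR = 0.0774) and 0.20 ± 0.08 in Ag+Costim vs Naive (edgeR FDR = 0.0583). Scaled by library totals alone, the second difference was 0.05. Without Ag 2 and Ag 5 it was 0.33 (edgeR FDR = 0.0167), with 56.4% of all genes called, and without Naive 5 and Ag 3 the Ag vs Naive difference was 0.31 (edgeR FDR = 0.0350), with 22.9% of all genes called.

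Its paralogue Upf3b, the stronger NMD activator of the pair and encoded on the X chromosome, did not pass in any comparison. It was at 22.0 to 34.1 CPM in Naive, 22.3 to 33.4 in Ag, then 22.1 to 28.3 in Ag+Costim, ranges that overlapped throughout. The ratio of Upf3a to Upf3b CPM was 1.31 ± 0.26 (SD, n = 5) in Naive, 1.57 ± 0.27 in Ag, then 1.64 ± 0.24 in Ag+Costim, again with overlap. By recorded sex, Upf3b averaged 29.6 CPM in 3 female and 25.3 CPM in 2 male Naive libraries, 27.8 and 26.7 CPM in Ag, and 26.2 and 23.4 CPM in Ag+Costim, and a difference between the sexes was not tested.

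Smg1, the UPF1 kinase, had the largest fold change among the members. It was at 160, 103, 86.8, 145 and 61.4 CPM in Naive 1 to 5 and at 44.5, 52.5, 43.8, 33.7 and 37.9 CPM in Ag+Costim 1 to 5. Every Ag+Costim library lay below every Naive library. It fell 2.62-fold in Ag+Costim vs Naive (log2 fold change -1.39 ± 0.36, edgeR FDR = 0.0120), and this call held on leaving out each library in turn, from -1.53 to -1.21. With lane as a term it was -1.63 (edgeR FDR = 0.0608), where 5.43% of all genes were called. Within lane 3 alone, with 2 Ag+Costim and 5 Naive libraries, the value was -1.64 (edgeR FDR = 0.0282), where 34.7% of all genes were called.

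In Ag, Smg1 was at 115, 48.4, 88.9, 104 and 24.9 CPM. Ag 1, 3 and 4 were in the Naive range, Ag 2 was in the Ag+Costim range, and Ag 5 was below all other libraries. Ag 2 and Ag 5 were also the libraries with the low input amounts. With 8419 and 9092 CPM, they had cell cycle levels like those of Ag+Costim, while Ag 3 was at 6407 CPM. Ag 2 and Ag 5 had 21705 and 20949 genes with a count. Ag+Costim libraries had 23891 to 25410 such genes and Naive libraries 30152 to 33853. The counted share of reads was 52.4% in Ag 2 and 53.6% in Ag 5, against 51.9% to 52.7% in Ag+Costim and 38.2% to 46.8% in Naive. Neither Ag vs Naive (-0.55 ± 0.35, edgeR FDR = 0.300) nor Ag+Costim vs Ag (-0.84 ± 0.36, unadjusted p = 0.0323, edgeR FDR = 0.151) passed. The latter was -1.12 without Ag 2 and Ag 5 (edgeR FDR = 0.00551), with 50.5% of all genes then called, and -1.06 without Ag 5 alone (edgeR FDR = 0.0272), with 19.7% called. Leaving out the Ag libraries lowest in Smg1 enlarges this difference by itself. With lane as a term, the Smg1 difference was -0.94 in Ag vs Naive (edgeR FDR = 0.626) and -0.70 in Ag+Costim vs Ag (edgeR FDR = 0.461). No gene at all was called with that term in either comparison. The part of input amount, cell cycle level, genes detected and counted share in these differences was not tested.

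Of the 2 partners of the kinase, Smg8 did not share its course, while Smg9 also fell in Ag+Costim vs Naive. Smg8 was at 23.7 to 33.8 CPM in Naive, 21.7 to 38.4 in Ag, then 28.2 to 35.4 in Ag+Costim. Its log2 fold change was 0.10 ± 0.16 in Ag+Costim vs Naive, 0.06 ± 0.16 in Ag vs Naive, and 0.04 ± 0.16 in Ag+Costim vs Ag, and none passed. Its 2 highest Ag libraries were Ag 2 (38.4 CPM) and Ag 5 (36.5 CPM), in which Smg1 was lowest. Without them, a choice made after seeing the data, the Ag+Costim vs Ag difference was 0.50 (edgeR FDR = 0.0162). Of all genes, 50.5% were then called. Leaving out the highest Ag libraries raises this difference by itself, so that FDR is no evidence of a difference in Smg8.

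Smg9 was at 66.7, 44.5, 55.8, 66.5 and 38.3 CPM in Naive 1 to 5, at 40.6, 31.6, 30.5, 41.6 and 43.3 CPM in Ag 1 to 5, and between 34.6 and 38.3 CPM in Ag+Costim. It fell in Ag+Costim vs Naive (log2 fold change -0.58 ± 0.16, edgeR FDR = 0.0137). Naive 5 reached down to the highest Ag+Costim library. Within lane 3 the value was -0.62 (edgeR FDR = 0.0920), with lane as a term -0.62 (edgeR FDR = 0.0709), without the filter on low counts -0.42 (edgeR FDR = 0.279), and without Ag+Costim 4 it was -0.47 (edgeR FDR = 0.0879). Its Ag vs Naive difference was almost as large (-0.53 ± 0.16) with an FDR of 0.0547.

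Of the effectors that act on phosphorylated UPF1, Smg6 fell in Ag+Costim vs Naive and Smg5 in Ag vs Naive. Smg6, the endonuclease, was at 61.9, 54.7, 44.2, 63.7 and 40.9 CPM in Naive 1 to 5 and at 29.4 to 35.8 CPM in Ag+Costim, without overlap. The change was 1.64-fold (log2 fold change -0.72 ± 0.21, edgeR FDR = 0.0181). It was -0.74 within lane 3 (edgeR FDR = 0.0370). The call was lost with lane as a term (edgeR FDR = 0.0902) and without the filter on low counts (edgeR FDR = 0.172), and also without Naive 1, Naive 4 or Ag+Costim 4, where the FDR was from 0.0512 to 0.0682. Ag 1, 3 and 4 held 57.3, 45.5 and 59.5 CPM of Smg6 against 28.2 and 28.9 CPM in Ag 2 and Ag 5, so that 3 Ag libraries lay in the Naive range and 2 just below the Ag+Costim range. Smg6 shares 126 exon bases with Srr and 117 with Gm12333 on the opposite strand, and the library kit does not keep strand, so reads there cannot be assigned with certainty.

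Smg5 had another order of groups. It was at 99.8, 54.4, 87.7, 91.8 and 68.0 CPM in Naive 1 to 5, at 55.2, 29.5, 49.7, 57.4 and 33.1 CPM in Ag 1 to 5, and at 61.1 to 66.9 CPM in Ag+Costim. Ag+Costim lay above every Ag library, as for 4.23% of all genes (2.1% had Ag+Costim lower, and 6.33% lay apart in either direction), and within the Naive range. Smg5 fell 1.79-fold in Ag vs Naive (log2 fold change -0.84 ± 0.20, edgeR FDR = 0.0256), and Ag+Costim vs Ag was 0.52 ± 0.20 (unadjusted p = 0.0187, edgeR FDR = 0.119). The Ag vs Naive call was lost with lane as a term (edgeR FDR = 0.626), where 0 of 17366 genes were called. It was also lost without the filter on low counts (edgeR FDR = 0.0870) and with only the 10 libraries compared (edgeR FDR = 0.163). It was lost too without Naive 1, Naive 3, Naive 4, Ag 2, Ag 5 or Ag+Costim 4, where the FDR was from 0.0514 to 0.0786, and it was -0.62 without Ag 2 and Ag 5 (edgeR FDR = 0.106). Both comparisons use the same Ag libraries.

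**Figure D2:**
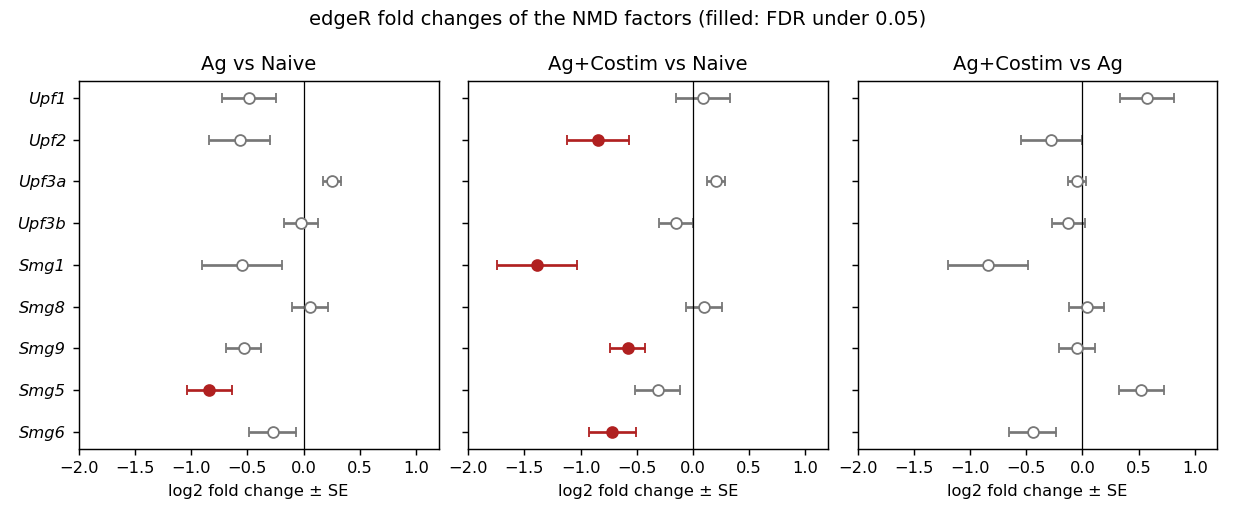
log2 fold changes ± SE (horizontal axis) of the 9 NMD factors from the edgeR fit in 3 comparisons, with filled red points at an FDR under 0.05. The members Smg1, Upf2, Smg6 and Smg9, are called lower in Ag+Costim vs Naive, Smg5 is called lower in Ag vs Naive, and no member is called in Ag+Costim vs Ag.

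Between Ag+Costim and Ag, groups that differed by the agonist antibodies and also in lane, input amount and marker levels, 0 of 9 members passed in edgeR, 3 of 9 had an unadjusted p under 0.05 (Smg5, Upf1 and Smg1), and 26.8% of all genes had one. DESeq2 also called 0 members, while limma's voom with sample weights called 4 (Smg1, Smg6 and Upf2 lower and Upf1 higher), where they called 20.5% and 57.5% of all genes. Within lane 2, with 3 Ag+Costim and 5 Ag libraries, 0 members and 0 genes in all were called.

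The calls moved with the tool and the libraries, and so did the background. In Ag vs Naive, DESeq2 and voom each called 2 members, beside 15.5% and 20% of all genes. For Ag+Costim vs Naive, DESeq2 called 4 members beside 38.5% of all genes and voom 6 beside 78.6%. Without Naive 5, 0, 2 and 5 members were called over Ag+Costim vs Ag, then Ag vs Naive, then Ag+Costim vs Naive, beside 0.256%, 21.5% and 51% of all genes. Without Ag 5 the counts for Ag vs Naive, then Ag+Costim vs Naive, were 0 and 5, beside 4.24% and 51.1%. Without Naive 5 and Ag 3, 6 members were called in Ag+Costim vs Naive, beside 58.5%, and without Ag 2 and Ag 5 none in Ag vs Naive, beside 4.61%.

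**Figure D3:**
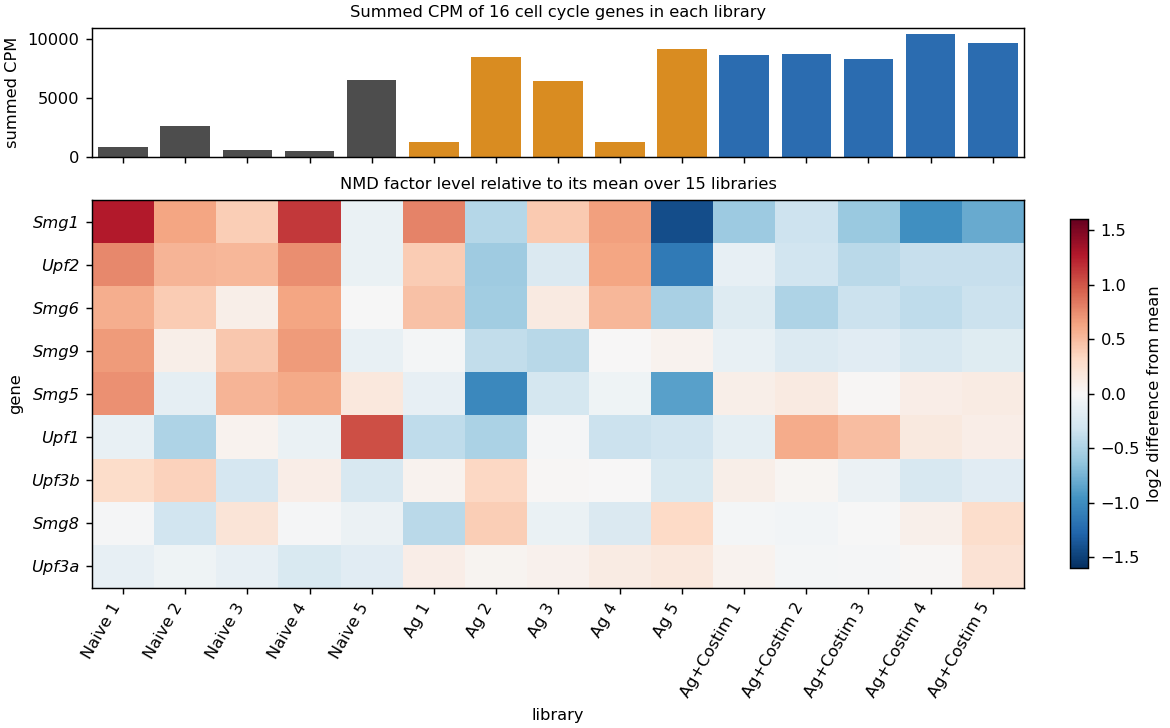
The upper bars give the summed TMM-scaled CPM of 16 cell cycle genes in each of the 15 libraries (grey Naive, orange Ag, blue Ag+Costim), and the lower grid gives the log2 difference of each NMD factor from its own mean over the libraries. Smg1, Upf2 and Smg6 are low in Ag 2, Ag 5 and all Ag+Costim libraries, the libraries with cell cycle levels from 8277 to 10347 CPM. Those libraries also had fewer genes with a count (20949 to 25410) than the other libraries (30152 to 44408). Upf2 was also low in Ag 3 (22.9 CPM) and Naive 5 (24.9 CPM). Their cell cycle levels were 6407 and 6528 CPM, with 44408 and 31858 genes with a count.

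The pattern over libraries set Smg1, Upf2 and Smg6 together. Across the 15 libraries, which share groups, depth and quality differences, Pearson's r of log2(CPM + 1) was 0.93 for Smg1 with Smg6, 0.92 for Smg1 with Upf2 and 0.91 for Upf2 with Smg6. Smg8 ran the other way, with r = -0.67 against Smg6 and -0.60 against Smg1, its partner in the kinase complex. Smg9, the other partner, had r = 0.61 with Smg1. Upf1 had r = 0.39 with Smg5 and between -0.56 and 0.03 with every other member. Outside the members, 11338 genes with a mean of at least 5 CPM were ranked by likeness. Zfp865 and Zfp950 were nearest to Smg1 (r = 0.99 for both), Gm21811 and Gm21092 to Upf2 (0.99 for both), and Wipf2 and Gm20342 to Smg6 (0.97 for both). Polr1a and Lfng were nearest to Smg5 (0.97 and 0.96), Rabggta and Fastk to Smg9 (0.96 for both), Tacc1 and Tlnrd1 to Upf1 (0.93 and 0.92), and Gatc and Pcid2 to Smg8 (0.90 and 0.89). Upf3a and Upf3b, which varied least, had lower best values, 0.90 and 0.85 for Rsu1 and Decr1 and 0.79 and 0.75 for Ftx and Cul3. These are descriptions over 15 libraries.

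Levels of different genes were compared only per length, as TPM, transcript counts divided by length and scaled to a fixed total, summed over each gene's transcripts. In Naive the order ran from Smg9 (44.6 ± 13.2 TPM, SD, n = 5) and Smg5 (37.2 ± 10.2) through Upf3a (28.0 ± 1.6), Upf1 (24.6 ± 10.7), Smg1 (19.2 ± 6.3), Upf3b (19.1 ± 3.2) and Smg6 (16.2 ± 3.7) to Smg8 (14.5 ± 2.6) and Upf2 (12.2 ± 3.0). The ranges of every pair of neighbours overlapped. In Ag, Upf3a (29.0 ± 4.0) and Smg9 (26.8 ± 6.0) were highest and Upf2 (7.56 ± 4.42) lowest, again with overlap between all neighbours.

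In Ag+Costim some neighbours in the order lay apart. Upf3a (29.1 ± 2.2 TPM) lay above Smg5 (25.5 ± 1.4) without overlap, Smg5, Smg9 (25.3 ± 1.2) and Upf1 (23.8 ± 5.0) could not be told apart, and Upf3b (15.6 ± 1.7) and Smg8 (13.9 ± 1.4) overlapped. The range of Upf1, 17.73 to 29.93 TPM, overlapped those of Upf3a (27.53 to 33.02) and Upf3b (13.73 to 17.75). Smg6 (8.49 ± 0.54), then Upf2 (6.11 ± 0.54) and Smg1 (6.04 ± 1.08) followed, with no overlap between Smg8 and Smg6 or between Smg6 and Upf2. Smg1 was thus 5th of 9 in Naive, 7th in Ag, then 9th in Ag+Costim. The order depends on the length used: by the union of each gene's exons, Smg1 was lowest in all 3 groups and Upf1 highest in all 3, because the annotated exons of Smg1 cover 23984 bases and its coding transcript 15557.

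**Figure D4:**
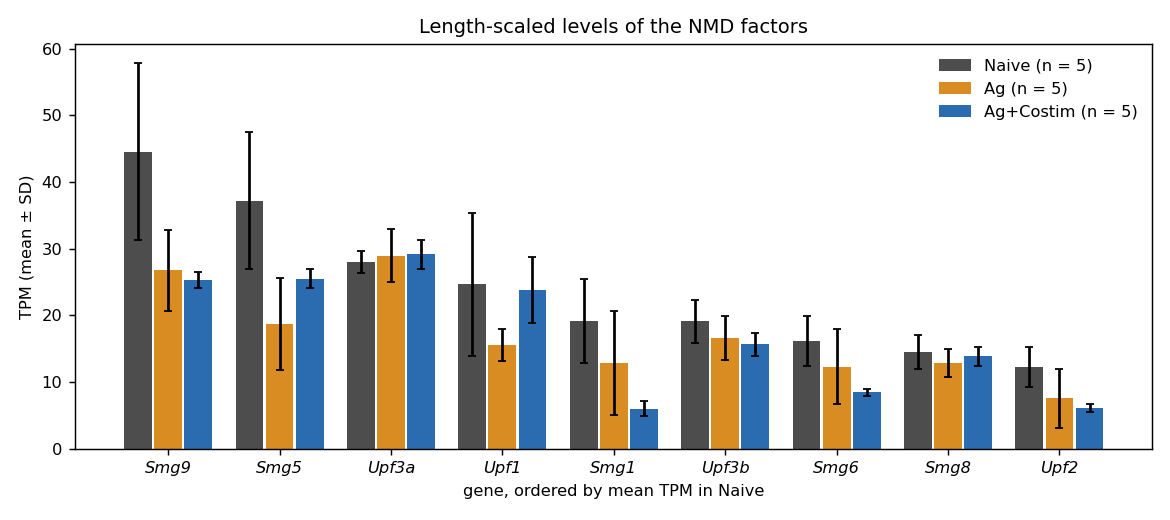
Mean TPM ± SD (vertical axis, n = 5 libraries) of the 9 NMD factors in Naive, Ag and Ag+Costim, ordered by the Naive mean. Smg1 is at 19.2 TPM in Naive and 6.04 in Ag+Costim, and Upf3a is between 28.0 and 29.1 TPM in all groups.

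Transcript shares, from StringTie's estimated counts per annotated transcript, were mostly those of 1 coding transcript per gene, except for Smg5. The main coding transcripts of Upf2 and Smg8 held at least 99.7% of their genes' counts in every library, that of Smg6 at least 89.0% and that of Upf3a at least 86.8%. The long Upf1 form, with the 33 bases shown in capitals, held 92.7% ± 3.0 (SD, n = 5) of Upf1 counts in Naive, 92.7% ± 2.6 in Ag, then 91.3% ± 2.9 in Ag+Costim. That split is an estimate from short single reads, since the transcripts differ only in those 33 bases and in 67 bases of exon 1.

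The largest non-coding share was in Smg5. One transcript annotated as a retained intron held 28.8% ± 9.8 of Smg5 counts in Naive, against 31.98% ± 14.8 for Ag libraries and 19.5% ± 7.6 for Ag+Costim. It was 34.0%, 37.7%, 25.2%, 33.9% and 13.4% in Naive 1 to 5, 32.3%, 56.3%, 16.2%, 27.3% and 27.8% in Ag 1 to 5, and 31.7%, 20.05%, 13.6%, 12.5% and 19.4% in Ag+Costim 1 to 5. The groups overlapped, and Ag 2, a library of low input, was the highest of all. The main coding transcript of Smg1 held 83.9% to 95.2% of Smg1 counts except in Ag 3, where it held 55.1%, and Ag 3 was the library with the fewest counted reads. A processed transcript of Upf3b held 2.09% to 35.0% of Upf3b counts, with means of 17.3% in Naive, 14.6% in Ag, then 8.44% in Ag+Costim and ranges that overlapped. Transcripts annotated as NMD targets exist for Smg1, Smg5 and Smg6, and they held 167 counts in all 15 libraries for Smg5 and 0 for the others.

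**Figure D5:**
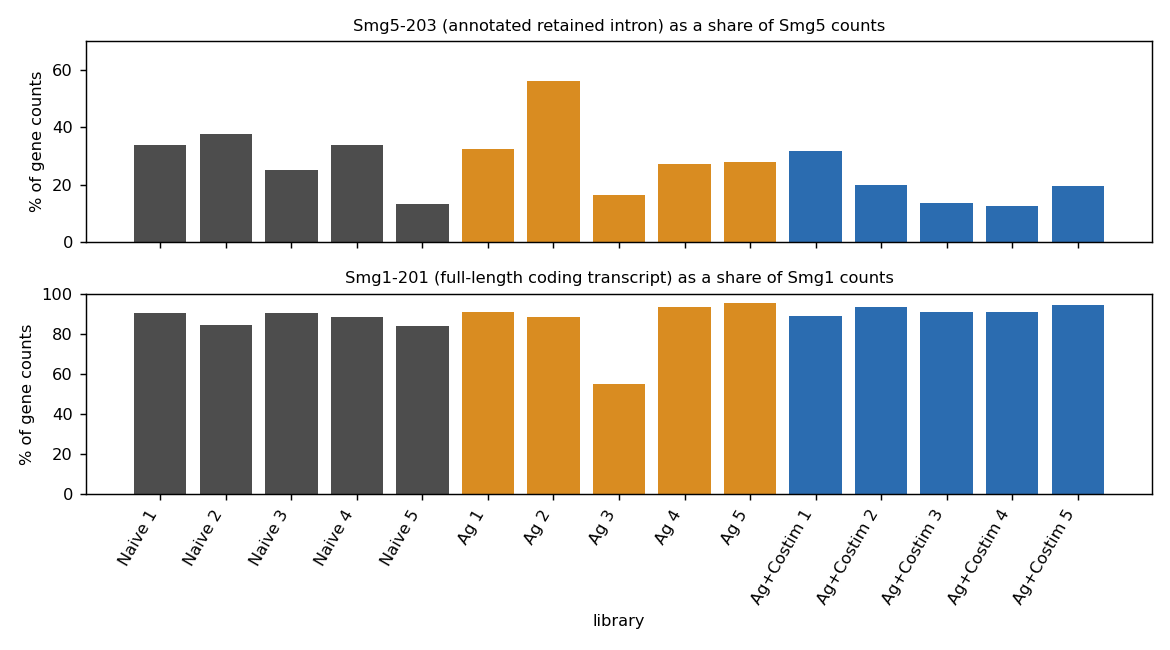
Share (percent of the gene's counts, vertical axis) of the retained intron transcript of Smg5 and of the main coding transcript of Smg1 in each of the 15 libraries (grey Naive, orange Ag, blue Ag+Costim). The Smg5 transcript ranges from 12.5% to 56.3% with overlap of the groups, and the Smg1 transcript stands at 55.1% in Ag 3 and at 83.9% or more elsewhere.

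A change of transcript shares could be tested for 7 of 9 members, because Upf2 and Smg8 had fewer than 2 transcripts past the filter. By edgeR's diffSpliceDGE, 0 of 7 passed an FDR of 0.05 in any comparison. Of 7501 genes tested, 1.75% did in Ag+Costim vs Ag, 1.31% in Ag vs Naive, and 2.2% in Ag+Costim vs Naive. The smallest member p-values were those of Smg1, 0.0598 in Ag vs Naive and 0.0975 in Ag+Costim vs Ag, so 0 members were also under an unadjusted 0.05. Of the 7501 genes, 652 were under it in Ag+Costim vs Ag, 448 in Ag vs Naive and 999 in Ag+Costim vs Naive. By limma's diffSplice, 2 members passed in Ag+Costim vs Naive, Smg9 (FDR = 0.0339) and Upf3a (FDR = 0.0495), where 16.9% of all genes did, and their main coding transcripts held 84.7% and 92.1% of counts in Naive and 92.6% and 96.6% in Ag+Costim.

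The genes around the members were read from lists of the pathway. Among accessory and release factors, 5 of 13 tested rose and 0 fell in Ag+Costim vs Naive, with a median log2 fold change of 0.47 over the list. For this and the next lists in that comparison, 21% of all genes rose and 23.6% fell. Ruvbl2 (1.07 ± 0.30, edgeR FDR = 0.0152) and Ruvbl1 (0.90 ± 0.27, edgeR FDR = 0.0193), ATPases that act on SMG1, rose where Smg1 itself fell. Etf1 (1.06 ± 0.27, edgeR FDR = 0.0116), which encodes the release factor eRF1 that recognises stop codons, and Sec13 (0.78 ± 0.23, edgeR FDR = 0.0197) rose too. In Ag vs Naive, Gnl2 fell (-0.51 ± 0.12, edgeR FDR = 0.0261) and none of the 13 rose.

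Of 11 exon junction complex genes, 6 rose and 2 fell in Ag+Costim vs Naive, beside 21% and 23.6% of all genes. Among those that rose were Magohb at 1.11 ± 0.43 (edgeR FDR = 0.0467), Magoh at 0.92 ± 0.32 (edgeR FDR = 0.0320), Eif4a3 at 0.85 ± 0.27 (edgeR FDR = 0.0228) and Rbm8a at 0.67 ± 0.24 (edgeR FDR = 0.0388). Magoh and Magohb are near-identical copies, so reads may have been split between them. Casc3 and Pnn were the genes that fell, and they also fell in Ag vs Naive, by -0.70 ± 0.13 (edgeR FDR = 0.0106) and -0.58 ± 0.15 (edgeR FDR = 0.0321). No other gene of the list was called in Ag vs Naive.

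Relative to Naive, in Ag+Costim 2 decapping and 5′ to 3′ decay genes of 9 rose and 1 fell: Lsm1 (0.58 ± 0.17, edgeR FDR = 0.0177), Dcp2 (0.40 ± 0.14, edgeR FDR = 0.0317), the decapping enzyme, and Dcp1a (-0.60 ± 0.21, edgeR FDR = 0.0319). Of 12 deadenylation genes 4 rose, among them Cnot9 (1.118 ± 0.29, edgeR FDR = 0.0113), Cnot11 (0.76 ± 0.21, edgeR FDR = 0.0145) and Cnot7 (0.36 ± 0.12, edgeR FDR = 0.0253), and Pan3 fell (-1.80 ± 0.35, edgeR FDR = 0.00398). Of 13 exosome and Ski complex genes 5 rose and 1 fell, and the largest changes were those of Exosc3 (0.94 ± 0.25), Exosc9 (0.86 ± 0.24), Exosc8 (0.85 ± 0.30) and Wdr61 (0.66 ± 0.19), all higher with an FDR between 0.0130 and 0.0366. The gene that fell was Exosc5 (-0.40 ± 0.14, edgeR FDR = 0.0321). None of these 3 lists had a called gene in Ag vs Naive, where the smallest p-values were those of Skiv2l (-0.43 ± 0.14, edgeR FDR = 0.0706), Exosc3 (0.64 ± 0.25, edgeR FDR = 0.118), Xrn1 (-0.63 ± 0.21, edgeR FDR = 0.0784), Edc4 (-0.44 ± 0.16, edgeR FDR = 0.0982), Cnot3 (-0.32 ± 0.13, edgeR FDR = 0.135) and Pan3 (-0.75 ± 0.34, edgeR FDR = 0.161).

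Transcripts known as natural NMD substrates did not rise together. Of 8 measured, 4 fell and 1 rose in Ag+Costim vs Naive, beside 23.6% and 21% of all genes. Gadd45a (-1.75 ± 0.36, edgeR FDR = 0.00491), Ddit3 (-1.44 ± 0.31, edgeR FDR = 0.00598), Snhg12 (-1.36 ± 0.33, edgeR FDR = 0.00978) and Gas5 (-0.61 ± 0.21, edgeR FDR = 0.0317, named after its value was seen) fell, and Gadd45b (0.70 ± 0.25, edgeR FDR = 0.0365) rose. In Ag vs Naive none of the 8 passed, and the smallest p-values were those of Snhg12 (-1.10 ± 0.33, edgeR FDR = 0.0605) and Gadd45a (-1.07 ± 0.35, edgeR FDR = 0.0762). Gadd45a was low, at 6.19 CPM in Naive and 1.84 in Ag+Costim. Over the whole transcript table, transcripts annotated as NMD targets held 2.103% ± 0.47 (SD, n = 5) of counts in Naive, 1.58% ± 0.29 in Ag, then 1.44% ± 0.08 in Ag+Costim. Transcripts annotated as retained introns held 6.35% ± 1.83, 4.49% ± 1.62 and 3.15% ± 0.34.

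For Ag+Costim vs Ag, no gene of these 6 lists was called by edgeR, and 17 of 66 had an unadjusted p under 0.05, beside 26.8% of all genes. The smallest p-values by list were those of Cnot7 (0.44 ± 0.12, edgeR FDR = 0.0807) and Cnot10 (0.38 ± 0.11, edgeR FDR = 0.0837), of Ddit3 (-1.10 ± 0.31, edgeR FDR = 0.0818) and Zfas1 (-0.51 ± 0.17, edgeR FDR = 0.0942), of Dis3 (0.86 ± 0.28, edgeR FDR = 0.0927) and Exosc10 (0.30 ± 0.12, edgeR FDR = 0.131), of Rnps1 (0.48 ± 0.20, edgeR FDR = 0.144) and Casc3 (0.20 ± 0.13, edgeR FDR = 0.313), of Etf1 (0.64 ± 0.27, edgeR FDR = 0.151) and Ruvbl1 (0.62 ± 0.27, edgeR FDR = 0.157), and of Edc4 (0.34 ± 0.16, edgeR FDR = 0.182) and Patl1 (0.40 ± 0.19, edgeR FDR = 0.185). The median log2 fold change was positive in 5 of these lists, from 0.11 for decapping to 0.31 for the exosome, and -0.25 for the substrates, beside -0.05 for the 9 NMD factors and -0.10 for all genes.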

How the data were processed

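RNA of sorted OT-I CD8+ T cells was made into libraries with a SMART-Seq v4 kit and Nextera XT, which do not keep strand. The authors aligned reads to mm10 with HISAT2 2.1.0 and ran StringTie 2.1.0, per the submitters' processing notes. The deposited gene and transcript tables hold its estimated read counts as whole numbers, not normalised, so the values are model estimates for transcripts of 1 gene. A deposited table from the sequencing core lists sequenced reads as a count and alignment as a percent, for single reads of 50 bases. Its input amount, as deposited, has no unit and was treated as a score. Recorded sex came from the authors' sheet. Identifiers were matched to GENCODE M21 (GRCm38).

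Gene counts were tested in edgeR 4.0.16 (R 4.3.3) with filterByExpr, TMM and robust quasi-likelihood fits on all 15 libraries, two-sided, adjusted over 17366 genes. The common biological coefficient of variation was 0.431. Transcript usage was tested with diffSpliceDGE. TPM used annotated transcript lengths. Alternatives included DESeq2 1.42.0, limma 3.58.1 and libraries left out, and leaving out Naive 5 with Ag 3 or Ag 2 with Ag 5 was added after seeing the data. The scripts were tested on simulated data. No interval of counting error is given, since the reads carry no molecular identifiers.

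The members, gene lists and tests were chosen with earlier results of these data known. All 9 members are named. From other lists, up to 4 called genes of largest change per comparison are named, or the 2 of smallest p where none was called. Likeness names the 2 genes of highest r per member. Library pairs of a group differed by more than sampling noise (lowest chi-square per degree of freedom 5.62), so none was counted as 1 sample. The deposited FPKM table was not used here. In it the columns of Ag 1 and Naive 5 hold the same values, while their count columns differ, so the identity of Naive 5 there is in doubt and its label was kept. Some genes of the lists are not reported here.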

Additional observations from a re-analysis of the deposited data

Results flagged for a closer look

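Of 27 sets of 5 libraries (9 members in 3 groups), 1 held a library that stood apart by Dixon's test at the 95% level, and chance gives about 1 in 20. It was Upf1 in Naive 5, at 127 CPM against 44.3 to 64.9 CPM in Naive 1 to 4. The gap to the nearest library was 0.750 of the group's range, above the critical value of 0.71 for 5 libraries. Naive 5 was also the Naive library with the highest summed cell cycle level (6528 CPM) and the lowest Smg1, Upf2, Smg6 and Smg9. Its summed myeloid markers were the highest of all libraries, 188 CPM against 11.5 to 87.5 CPM in Naive 1 to 4. Its summed erythroid markers were the highest of the Naive libraries (151 CPM). Whether these go together was not tested.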

How the results depend on the processing

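In Ag+Costim vs Ag the count of members called, 0, became 4 under voom, 1 without Naive 5 and Ag 3, and 3 without Ag 2 and Ag 5. Beside these, 57.5%, 5.73% and 50.5% of all genes were called. The count ranged from 0 to 1 with single libraries left out (1 without Ag 5, beside 19.7% of all genes). In Ag vs Naive the count of 1 became 2 under DESeq2 and under voom, beside 15.5% and 20% of all genes. It became 3 without Naive 5 and Ag 3 and 0 without Ag 2 and Ag 5, beside 22.9% and 4.61%. With lane as a term it was 0, where 0 of 17366 genes were called. It was also 0 without the filter on low counts and with only the 10 libraries compared, and the shares of all genes for these 2 settings are not given here. It ranged from 0 to 2 with single libraries left out. In Ag+Costim vs Naive the count of 4 became 1 without the filter and 0 with lane as a term, the latter beside 5.43% of all genes. It ranged from 1 to 5 with single libraries left out (1 without Ag+Costim 4, 5 without Naive 5). The 7 members tested for transcript shares gave 2 calls with limma's diffSplice in Ag+Costim vs Naive and 0 under each single library left out. Direction changed for members near 0, as log2 fold changes. In Ag+Costim vs Ag these were, without the filter, Upf3a 0.21, Upf3b 0.14 and Smg9 0.19, without Ag 2 and Ag 5, Upf3a 0.12, Upf3b 0.064 and Smg9 0.098, and for Smg8 -0.016 by library totals, -0.054 with lane as a term and -0.040 within 1 lane. In Ag vs Naive, Smg8 was -0.25 under voom, -0.046 by library totals, -0.036 without the filter and -0.29 without Ag 2 and Ag 5, where Smg6 was 0.0033. In Ag+Costim vs Naive, Upf1 was -0.049 by library totals, -0.038 with lane as a term and -0.034 within 1 lane, Upf3b 0.036 without the filter and Smg8 -0.062 by library totals. With single libraries left out, Ag+Costim vs Ag ranged from -0.094 to 0.054 for Upf3a, from -0.18 to 0.073 for Upf3b, from -0.063 to 0.26 for Smg8 and from -0.11 to 0.052 for Smg9. Ag vs Naive ranged from -0.11 to 0.050 for Upf3b and from -0.067 to 0.15 for Smg8, and Upf1 in Ag+Costim vs Naive from -0.050 to 0.43. The cause of these moves was not tested.

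With the replicate number as a block, 0, 1 and 4 members were called in the 3 comparisons, as without it. The share of all genes called with this block is not given here. Same-numbered libraries deviated together in 5 of 15 pairs (r over 0.1), with r from -0.324 to 0.470 and a median of 0.03. Different-numbered libraries did so in 12 of 60 pairs, with r from -0.594 to 0.493 and a median of -0.03. Since the highest r lay between libraries of unlike number, these values cannot settle whether the numbers pair the libraries. Same-numbered libraries share recorded sex, and its part was not tested. Total counts were lowest in Ag 3 (4865952).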
